A study of Mus musculus with 12 samples.

Results

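The genes described here mark precursors of B cells in bone marrow: 9 were named, and 6 of them have a row among the 23134 genes of the table. The 6 are Ebf1, Pax5, Rag1, Rag2, Vpreb3 and Cd79a, found by their symbol, and all 6 had enough counts to be tested. Vpreb1, Igll1 and Dntt are not analysed here. The samples are total bone marrow of C57BL/6 mice that carried Vk12653, a transplantable myeloma line given by intravenous injection. Untreated marrow (3 samples) was collected 10 days after injection, on treatment day 0. For the other 9 samples, mice had received 3H3, an agonist antibody to the costimulatory receptor CD137, at 10 µg into the peritoneum 2 times a week. Their marrow was collected after 4, 11 or 18 days of antibody, corresponding to 14, 21 or 28 days of myeloma, with 3 samples at each time. All groups carry the myeloma, and no untreated samples at those later times are analysed here, so time since injection and antibody cannot be told apart. The labels do not say how many mice stand behind a sample, and p-values measure only the spread between these samples.

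B cells arise in bone marrow from lymphoid progenitors in ordered steps. EBF1 and PAX5 switch on and then hold the B cell programme, RAG1 and RAG2 cut DNA so that antibody gene segments can be joined, and the surrogate light chain lets a new heavy chain be tried at the surface together with CD79A and CD79B. The Rag genes are shut off as the cells mature, whereas Pax5 and Cd79a stay on in mature B cells. Ebf1 is also expressed by marrow stroma, the supporting connective tissue.

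The table holds normalised counts, which summed to 19.16 to 20.84 M in each sample. Read depth, worked out from gaps among the low values, was 16.0 to 17.8 M at day 4, 21.6 to 25.2 M in untreated marrow, and 16.8 to 24.3 M on the later days. Neutrophil, erythroid, B cell and T cell genes were all measured in this whole marrow. None of the 15 gene lists used held a gene that was at 0 in every sample of a group.

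All 6 genes are protein coding. In GRCm38, Ebf1 spans 44617317 to 45008091 of chromosome 11 (plus strand), and Pax5 is on the minus strand of chromosome 4 from 44524757 to 44710487. Rag2 and Rag1 are neighbours on chromosome 2, Rag2 on the plus strand from 101624718 to 101632529 and Rag1 on the minus strand from 101638282 to 101649501. Vpreb3 spans 75943057 to 75949657 of chromosome 10 and Cd79a spans 24897381 to 24902197 of chromosome 7, both on the plus strand. Exons of other genes cover 6.1% of the exonic length of Rag2 and 1.2% of that of Rag1, both from B230118H07Rik, and 7.2% and 1.4% of that of Pax5 lie under 5730488B01Rik and Gm12462. Whether counting used strand is not given in the sources used here, so reads in those stretches cannot be assigned with certainty.

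The promoters of Rag1 and Cd79a are shown because they are the windows of the 6 genes that hold the motif below. Their ratio did not pass a test over time. Each sequence is the 250 bases before the start of the gene in RefSeq (GRCm38.p6), read along the gene's strand, and lies at chr2:101649533-101649782 on the minus strand for Rag1 and at chr7:24897247-24897496 on the plus strand for Cd79a. Capitals mark CAGGTG, an E-box of the kind bound by E proteins such as TCF3, searched on both strands.
Rag1: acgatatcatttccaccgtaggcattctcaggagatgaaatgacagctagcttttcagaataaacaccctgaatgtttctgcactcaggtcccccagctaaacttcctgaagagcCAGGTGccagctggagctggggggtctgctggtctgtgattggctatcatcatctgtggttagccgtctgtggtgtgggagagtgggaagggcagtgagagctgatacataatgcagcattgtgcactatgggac
Cd79a: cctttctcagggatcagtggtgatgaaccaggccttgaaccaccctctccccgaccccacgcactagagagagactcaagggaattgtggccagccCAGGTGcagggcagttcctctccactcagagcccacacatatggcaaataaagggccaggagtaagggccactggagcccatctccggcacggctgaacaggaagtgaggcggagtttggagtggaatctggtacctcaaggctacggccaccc
The match begins 135 bases before the start in Rag1 and 154 bases before it in Cd79a. Of the 32851 promoter windows of this length, 17.2% hold this motif. The windows of Pax5, Rag2, Vpreb3 and Ebf1, which has 2 annotated starts, do not hold these letters. The palindrome CCCNNGGG, the core of EBF1 sites, is in 11.8% of all windows and in none of those of the 6 genes. These are matches of letters and not measured sites.

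Per kilobase of exon, the order of levels in untreated marrow was Cd79a, Vpreb3, Pax5, Rag1, Ebf1 and Rag2. Their means were 2806 ± 461, 1031 ± 133, 458 ± 13.0, 354 ± 11.7, 158 ± 15.8 and 46.1 ± 2.04 normalised counts per kilobase (SD, n = 3). The samples of neighbours in that order did not overlap. At day 4 the samples of Pax5, from 311 to 524 per kilobase, overlapped those of Rag1, from 348 to 556. They also overlapped at day 11, with 250 to 286 for Pax5 and 283 to 320 for Rag1, and at day 18, with 230 to 428 and 235 to 495. In each treated group the mean of Rag1 was the higher. It was 439.5 against 404.7 for Pax5 at day 4, 298.8 against 269.7 at day 11 and 356.5 against 316.7 at day 18. These ranges and means do not pair the genes within samples, and their ratio within samples is given further below. Rag2 was the lowest of the 6 in every group.

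Cd79a fell at days 11 and 18 and Pax5 at day 11, to 0.567, 0.604 and 0.588 times their untreated levels in that order, while Rag1, Rag2, Vpreb3 and Ebf1 did not pass at any day. The 3 comparisons share the untreated samples. At day 4, 0 of the 6 genes were called with limma, where 4.64% of the 14883 genes tested were (2.4% higher and 2.24% lower). Also, 0 had an unadjusted limma p under 0.05, a level at which the share of all genes was not counted. None of the 6 was clear of the untreated samples then, whereas 13.5% of all genes were higher and 12.1% lower without overlap. At day 11, 2 of 6 were lower and none higher, against 5.32% of all genes called, 3.2% higher and 2.12% lower. At day 18, 1 of 6 was lower, against 9.2% of all genes called, 5.29% higher and 3.91% lower. The F-test over the 4 time points called Cd79a alone (limma adjusted p = 0.0272), where 9.47% of all genes were called.

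Groups did not overlap for 4 of 6 genes at day 11, all lower, where 12.3% of all genes were lower and 14.1% higher without overlap. At day 18 it was 2 of 6, all lower, where 12.6% were lower and 13.8% higher. The median log2 change over the 6 genes was 0.07 at day 4, -0.31 at day 11 and -0.28 at day 18, while the median over all genes tested was 0.01, 0.00 and 0.00.

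Rag1, the DNA-cutting subunit, was at 2397, 2253 and 2375 normalised counts in the untreated samples. It was at 2297, 3673 and 2743 at day 4, at 2111, 1873 and 1939 at day 11, and at 3273, 2244 and 1550 at day 18. The day 11 samples lay below all untreated samples, and the day 18 samples spread to both sides of them. At day 4, replicates 2 and 3 lay above all untreated samples and replicate 1 among them. Its log2 change from untreated marrow was 0.28 ± 0.21 at day 4 (SE, limma adjusted p = 0.488), -0.25 ± 0.21 at day 11 (adjusted p = 0.554) and -0.06 ± 0.21 at day 18 (adjusted p = 0.906). The 95% intervals at days 11 and 18 reach from -0.69 to 0.20 and from -0.50 to 0.39 on the log2 scale.

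Rag2, the partner that directs RAG1 to open chromatin, was at 163, 161 and 150 in untreated marrow. It was at 117, 218 and 167 at day 4, at 185, 192 and 94 at day 11, and at 191, 117 and 141 at day 18. The groups overlapped at each day. The log2 changes were 0.04, -0.08 and -0.11 at days 4, 11 and 18, each with an SE of 0.27 and with limma adjusted p from 0.864 to 0.958. At day 11 the 95% interval reached from -0.66 to 0.50, so neither a fall nor a rise within that range is excluded. Day 11 replicate 3 held the lowest Rag2 value of all 12 samples, and without it the log2 change at day 11 was 0.25.

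Vpreb3, a relative of the surrogate light chain gene Vpreb1 that is expressed in B cell precursors, was at 862, 1009 and 785 in untreated marrow. It was at 832, 1366 and 826 at day 4, at 862, 968 and 496 at day 11, and at 825, 652 and 832 at day 18. Again all groups overlapped. The log2 changes were 0.15, -0.24 and -0.20, with an SE of 0.23 at each day and limma adjusted p of 0.761, 0.610 and 0.655.

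Ebf1, the transcription factor that commits progenitors to the B lineage, was at 1444, 1719 and 1460 before treatment. It was at 1131, 2271 and 1773 at day 4, at 1255, 1386 and 950 at day 11, and at 1554, 1044 and 1061 at day 18. All 3 day 11 samples were below all untreated samples, whereas at day 18 only replicates 2 and 3 were. The log2 change was -0.38 ± 0.22 at day 11 (limma adjusted p = 0.369) and -0.36 ± 0.22 at day 18 (adjusted p = 0.359). Of the marrow stroma, which also expresses Ebf1, 6 markers were tested, and none was called at any day. Their summed level was 307 to 479 normalised counts in untreated marrow, 267 to 466 at day 4, 247 to 343 at day 11 and 254 to 465 at day 18, and its part in the level of Ebf1 was not tested.

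**Figure D1:**
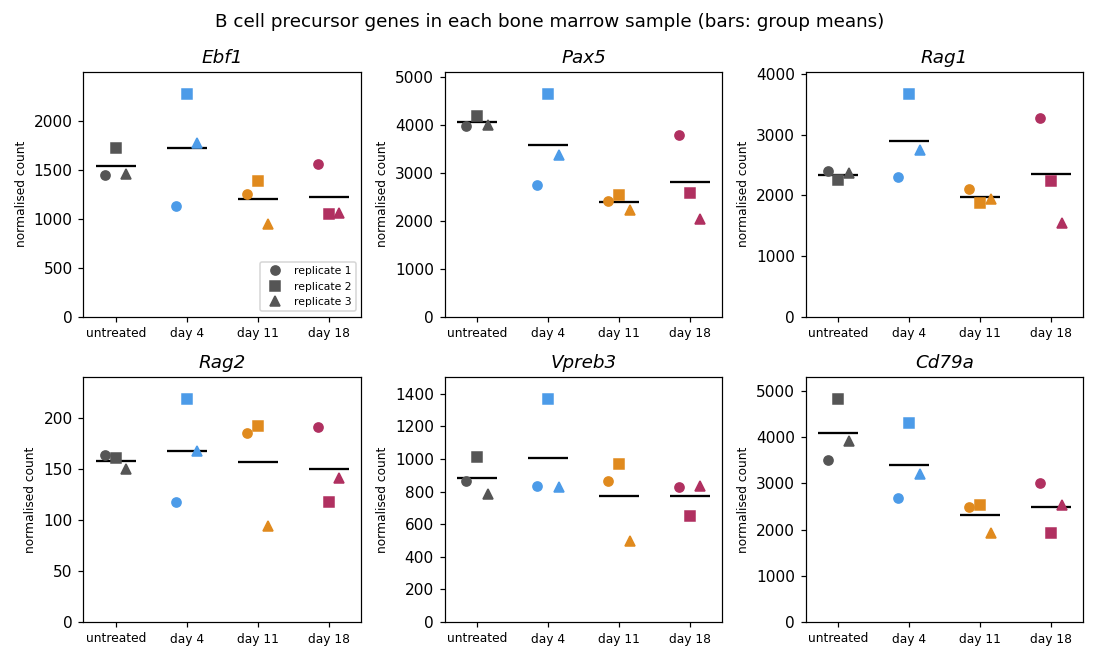
Normalised counts (vertical axes, from 0) of the 6 B cell precursor genes in each of the 12 marrow samples, by group; symbols are replicates and bars are means of 3 samples. Cd79a and Pax5 were lower at day 11, where Cd79a lay at 1925 to 2539 against 3511 to 4824 in untreated marrow, while the day 4 and untreated samples of every gene overlapped.

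Pax5 and Cd79a were the genes called lower. Mature B cells keep expressing both. The part of those cells in the values of both genes, or of the other precursor genes, was not tested. With all samples in, no ratio of Pax5 or Cd79a to another precursor gene passed a test over time. Pax5, the factor that holds B cell identity, went from 3970, 4184 and 4002 in untreated marrow to 2417, 2531 and 2214 at day 11, with no overlap. The log2 change was -0.76 ± 0.19 (limma adjusted p = 0.0357), a level of 0.588 times the untreated one. At day 18 its samples were at 3792, 2585 and 2035, all below the untreated ones but widely spread, and the log2 change of -0.58 ± 0.19 did not pass (limma adjusted p = 0.0813). At day 4 it was at 2751, 4639 and 3359.

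Cd79a, the signalling chain that pairs with CD79B under the B cell receptor, went from 3511, 4824 and 3928 to 2481, 2539 and 1925 at day 11. The log2 change was -0.82 ± 0.19 (limma adjusted p = 0.02), a level of 0.567 times the untreated one. At day 18 it was at 3003, 1924 and 2534, again below every untreated sample, with a log2 change of -0.73 ± 0.19 (limma adjusted p = 0.0252). At day 4 it was at 2680, 4311 and 3202, which overlapped the untreated samples. In whole marrow, fewer cells of a type and less RNA per cell cannot be told apart.

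These calls rested on few samples. The day 11 calls of both genes ended without untreated replicate 2 or 3, or day 11 replicate 1 or 3, and that of Pax5 also when untreated replicate 1, day 4 replicate 3 or day 11 replicate 2 was left out. Adjusted p over these alternatives was 0.0507 to 0.0952 for Cd79a and 0.0521 to 0.124 for Pax5 (limma). The day 18 call of Cd79a ended when untreated replicate 2, untreated replicate 3 or day 18 replicate 2 was left out, at limma adjusted p of 0.105, 0.0695 and 0.111. Adding the estimated depth as a covariate ended all 3 calls (limma adjusted p of 0.0825, 0.149 and 0.0641), with a log2 change of -0.75 for Cd79a and -0.59 for Pax5 at day 11, and of -0.68 for Cd79a at day 18. Fitting without the intensity trend also ended all 3, with unchanged log2 changes.

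Between treated days, 0 of the 6 genes were called with limma. For day 11 against day 4, 1.68% of all genes were called, 0.726% higher and 0.954% lower. For day 18 against day 4 it was 5.48%, with 2.77% higher and 2.7% lower, and for day 18 against day 11 it was 0.00672%, all of it higher and 0% lower. At an unadjusted limma p under 0.05 there were 4 of the 6 for day 11 against day 4, 1 for day 18 against day 4 and 0 for day 18 against day 11. The share of all genes at that level was not counted, so these counts have no reference. For day 11 against day 4 all 6 log2 changes were negative, with a median of -0.51, against 0.00 over all genes tested. At day 4 all 6 genes were highest in the same replicate, so they are not separate results. In 3 of them the groups did not overlap, where 8.16% of all genes were lower and 8.8% higher without overlap. No gene of the 6 was clear of the earlier group for day 18 against day 4, where 9.85% of all genes were higher and 9.79% lower, or for day 18 against day 11, where 5.11% were higher and 5.36% lower.

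**Figure D2:**
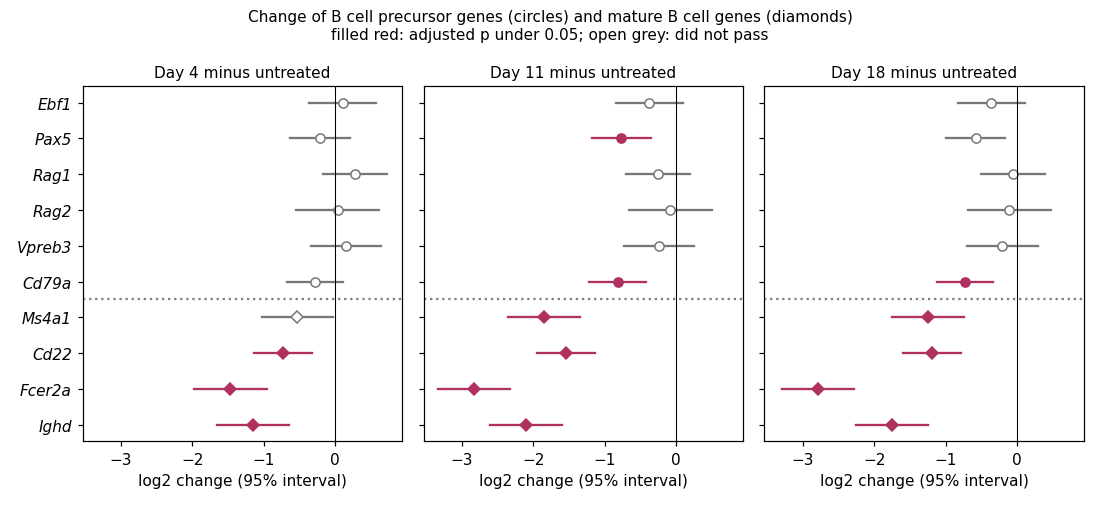
Log2 change from untreated marrow (horizontal axes) at each treatment day for the 6 precursor genes (circles) and 4 mature B cell genes (diamonds), with 95% intervals of the limma fit; filled red marks an adjusted p under 0.05. Only Pax5 and Cd79a among the circles are filled, at day 11 both and at day 18 Cd79a, and the diamonds lie farther to the left, from -1.53 to -2.83 at day 11. The tested mature B cell genes that are not drawn fell less at day 11, from -0.40 to -1.51, a range that takes in Pax5 and Cd79a.

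The spread within groups was itself uneven. Over the 6 genes, the SD was 2.85 to 16.4% of the mean in untreated marrow, against 24.2 to 33.1% at day 4, 6.22 to 34.8% at day 11 and 13.3 to 36.8% at day 18. At day 4 all 6 genes were highest in replicate 2 and 5 were lowest in replicate 1. Without replicate 2 the day 4 log2 changes of Ebf1, Rag2 and Vpreb3 turned to -0.12, -0.17 and -0.087. At day 11, 5 of 6 were lowest in replicate 3 and at day 18, 5 of 6 were highest in replicate 1. The mature B cell genes were ordered alike at day 4, with 8 of 11 highest in replicate 2, and at day 18, with 9 of 11 highest in replicate 1. At day 11 they were not, since only 2 of 11 were lowest in replicate 3 and 6 were highest there.

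The list of mature B cell genes had more negative medians. Of 11 tested, 6 were lower at day 4, 11 at day 11 and 10 at day 18, and none was higher, with median log2 changes of -0.57, -1.27 and -0.93. The day 4 count was 0 with the depth covariate, 2 with no intensity trend and 3 with only the groups compared. It was 1 without untreated replicate 2 or 3, 2 without day 4 replicate 1, and 3 without day 4 replicate 3 or day 11 replicate 1. Its first gene, Ms4a1, encodes CD20, which appears late in B cell development and stays on mature cells. Ms4a1 was at 2541 ± 315 normalised counts in untreated marrow (SD, n = 3), at 1794 ± 471 at day 4, at 715 ± 166 at day 11 and at 1111 ± 416 at day 18. Its log2 change was -1.84 ± 0.23 at day 11 (limma adjusted p = 0.000313).

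To set the precursor genes beside Ms4a1, the ratio of each to Ms4a1 was formed within every sample, from normalised counts plus 1, so that the scaling of a sample has next to no effect on it. The size of a ratio depends on gene lengths too, so only its course over time is compared. Rag1 over Ms4a1 was 1.05, 0.779 and 0.971 in untreated marrow. It was 1.67, 1.59 and 1.62 at day 4, 3.37, 3.05 and 2.14 at day 11, and 2.07, 2.35 and 1.95 at day 18. Every treated sample was above every untreated one, and each day 11 sample was above each day 4 sample.

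Vpreb3 over Ms4a1 was 0.378, 0.349 and 0.321 in untreated marrow and 1.38, 1.58 and 0.548 at day 11, with day 11 replicate 3 apart from the other two. The mean log2 ratio at day 11 minus that in untreated marrow was 1.47 for Ebf1, 1.08 for Pax5, 1.6 for Rag1, 1.77 for Rag2, 1.6 for Vpreb3 and 1.03 for Cd79a. At each of the 3 treated days, all 6 ratios were above all untreated samples. Ms4a1 was chosen with its own fall known, and all 6 ratios share it, so their rise restates that fall. An exact permutation test over the 4 time points passed for 6 of 6, which adds no support for that reason.

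With each of the 11 mature genes in turn as denominator, all 6 ratios had a higher mean log2 value at day 11 than in untreated marrow for 9 of the genes. Cd37 and Cd55, named after their values were seen, were the exceptions, with 4 of 6 higher for each. Their log2 changes at day 11, -0.40 and -0.60, were smaller than those of Pax5 and Cd79a. The median difference over the 6 ratios ranged from 0.09 with Cd37 to 2.52 with Fcer2a. These are values with no test, and they depend on which mature gene is used.

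**Figure D3:**
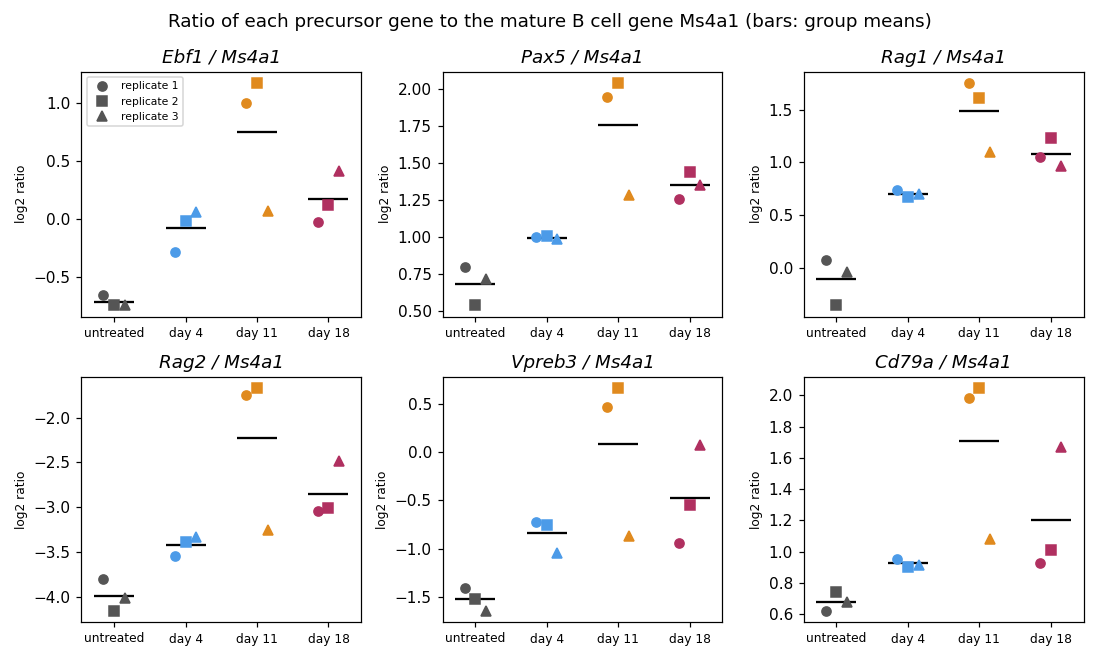
Log2 ratio of each precursor gene to the mature B cell gene Ms4a1 (vertical axes) in the 12 samples, by group; symbols are replicates and bars are means of 3 samples. Untreated samples are the lowest in every panel, and day 11 replicate 3 lies below the other two day 11 samples in each, for Rag1 at a ratio of 2.14 against 3.37 and 3.05.

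Within the 6 genes, 0 of the 15 pairwise ratios passed (exact permutation test over the 4 time points, adjusted p from 0.127 to 0.940), and 3 had an unadjusted p under 0.05. One was Pax5 over Rag1, at 1.66, 1.86 and 1.68 in untreated marrow and between 1.14 and 1.35 in all 9 treated samples (exact p = 0.0169, adjusted p = 0.127). The others were Rag2 over Cd79a (exact p = 0.0151, adjusted p = 0.127) and Vpreb3 over Cd79a (exact p = 0.0349, adjusted p = 0.174). Without day 11 replicate 3, 3 of the 15 passed, and without day 18 replicate 3, 1 did. The 2 ratios named at the outset were Rag1 over Rag2, with adjusted exact p = 0.589, and Ebf1 over Pax5, with 0.233. Rag1 over Rag2 was 13.9 to 15.7 in untreated marrow, where both genes were steady. It was 16.3 to 19.5 at day 4, 9.71 to 20.4 at day 11 and 10.9 to 19 at day 18.

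Other genes of the same steps were read from lists. Beside the counts in these lists, 2.4% of all genes were called higher and 2.24% lower at day 4. At day 11 it was 3.2% and 2.12%, and at day 18 it was 5.29% and 3.91%. A single called gene in a list this short says little about the list. The signalling genes of the pre-B cell receptor had 10 tested members, of which 4 fell at day 11 and 4 at day 18, with none higher. Cd79b, the partner of Cd79a, went from 3846 ± 712 to 2065 ± 262 at day 11 (SD, n = 3, log2 change -0.89 ± 0.20, limma adjusted p = 0.0171) and was at 2344 ± 427 at day 18 (limma adjusted p = 0.0362). The kinase gene Syk went from 13710 ± 657 to 10630 ± 386 at day 11 (limma adjusted p = 0.0458), a call that held in 9 of 22 alternatives and in 2 of the 12 that leave out a sample. Those of Cd79b held in 17 of 22 at day 11 and 14 of 22 at day 18. The adaptor gene Blnk, at 1334 ± 63.9, 1439 ± 430, 1131 ± 170 and 1132 ± 127 in the 4 groups in order of time, and the kinase gene Btk, at 3113 ± 155, 2941 ± 143, 2822 ± 145 and 2690 ± 66.2, did not pass. Called members also included, named after their values were seen, the kinase gene Blk at days 11 and 18, and Bcl6, a repressor, at days 4 and 18. The day 18 calls of Blk and Bcl6 held in 16 and 15 of 22 alternatives, and their calls at days 11 and 4 in 22 of 22.

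B lineage transcription factors had 3 of 13 tested members lower at day 11 and 1 at day 18, none higher. Named after their values were seen, these were Bach2, from 2145 ± 128 to 1224 ± 130, the coactivator gene Pou2af1, from 3882 ± 210 to 2563 ± 405, and Spib, from 6020 ± 500 to 3518 ± 229, at day 11, and Id3 at day 18. The day 11 calls held in 15, 13 and 16 of 22 alternatives for Bach2, Pou2af1 and Spib, with limma adjusted p up to 0.172 for Pou2af1, and that of Id3 in 18. The other tested members did not pass at any day. Among them, named after their values were seen, Irf4 changed by -0.52 on the log2 scale at day 11 (limma adjusted p = 0.0869). Sox4 changed by 0.76 at day 4 (limma adjusted p = 0.0684). Tcf3, which encodes E2A, was at 4305 ± 194 in untreated marrow and 4007 ± 158 at day 11, Ikzf1 at 11260 ± 510 and 11120 ± 631, Foxo1 at 1058 ± 84.0 and 893 ± 79.8, and Lef1 at 419 ± 96.2 and 537 ± 117. Of genes for DNA recombination and end joining, 1 of 10 fell at day 11, Polm, a DNA polymerase gene named after its value was seen, whose call held in 14 of 22 alternatives, and none passed at day 4 or day 18.

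Early lymphoid genes had 2 of 7 members lower and 1 higher at day 11. Il7r, the receptor for interleukin 7, on which mouse B cell precursors depend, went from 1657 ± 104 to 1173 ± 199 (log2 change -0.51 ± 0.12, limma adjusted p = 0.0285) and was at 1465 ± 224 at day 18 (limma adjusted p = 0.405). Satb1, a chromatin organiser, went from 1923 ± 90.1 to 1460 ± 191 at day 11 and 1388 ± 107 at day 18 (limma adjusted p = 0.0223 and 0.00610). The day 11 calls held in 15 of 22 alternatives for Il7r and 17 for Satb1. T cells also express both, and of 8 T cell genes 7 rose at day 11, with a summed level of 2078 to 3358 before and 7752 to 8482 then. The part of T cells in these values was not tested. Flt3, a receptor of progenitors, was at 959 ± 8.89 and 968 ± 74.3 at day 11, and Ly6d at 1683 ± 239 and 1223 ± 78.5. The member that rose was Cd27, named after its value was seen, which T cells express as well.

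Precursor surface markers had 1 of 8 members higher at day 11 and 2 at day 18, none lower. Enpep, which encodes the BP-1 antigen of mouse pre-B cells, was at 137 ± 24.4 in untreated marrow and 236 ± 50.1 at day 11 (limma adjusted p = 0.0938), and rose to 244 ± 4.04 at day 18 (log2 change 0.85 ± 0.25, limma adjusted p = 0.0477). That call held in 13 of 22 alternatives and in 4 of the 12 that leave out a sample, with limma adjusted p up to 0.183. Cd93 was at 4191 ± 97.5, 3894 ± 232, 4235 ± 116 and 4280 ± 1050 in order of time, and Bst1 at 1542 ± 286, 1478 ± 182, 1551 ± 158 and 1433 ± 89.8. Mme was low throughout, at 16.3 ± 7.51 to 27.0 ± 9.54. The other member that rose was Spn, which encodes CD43 and is also expressed by T cells and myeloid cells. It was named after its value was seen.

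Niche factors that feed precursors had 1 of 6 tested genes lower at day 11, Kitl, from 69.3 ± 14.2 to 29.7 ± 4.73, a call that held in 18 of 22 alternatives. At day 18 Kitl was at 53.3 ± 21.2 (limma adjusted p = 0.361), and 1 of 6 was lower, Igf1, a growth factor gene named after its value was seen, from 138 ± 22.5 to 73.0 ± 6.24 (limma adjusted p = 0.00236). Cxcl12, which holds precursors in the marrow, was at 841 ± 466 before and 607 ± 170 at day 11, a wide spread. Il7 stood at 5.67 ± 0.577 and 9.67 ± 4.16, low counts near the filter limit of 10. At day 18 Il7 was at 16.0 ± 8.66, above all untreated samples, as were 13.8% of all genes, and was not called. Plasma cell and myeloma genes had 1 of 6 lower, Sdc1, and 1 higher, Prdm1, at days 11 and 18. Which cells of the marrow held the Prdm1 RNA was not tested. Plasmacytoid dendritic cells, which share some genes with B cell precursors, had a summed level of 5392 to 5430 over 5 genes in untreated marrow, 4492 to 4830 at day 4, 4613 to 5557 at day 11 and 5116 to 6306 at day 18. Of the 5, Siglech was lower at day 4 (log2 change -0.45, limma adjusted p = 0.0329, held in 13 of 22 alternatives) and Bst2 higher at day 18 (0.37, limma adjusted p = 0.0144, held in 19 of 22).

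**Figure D4:**
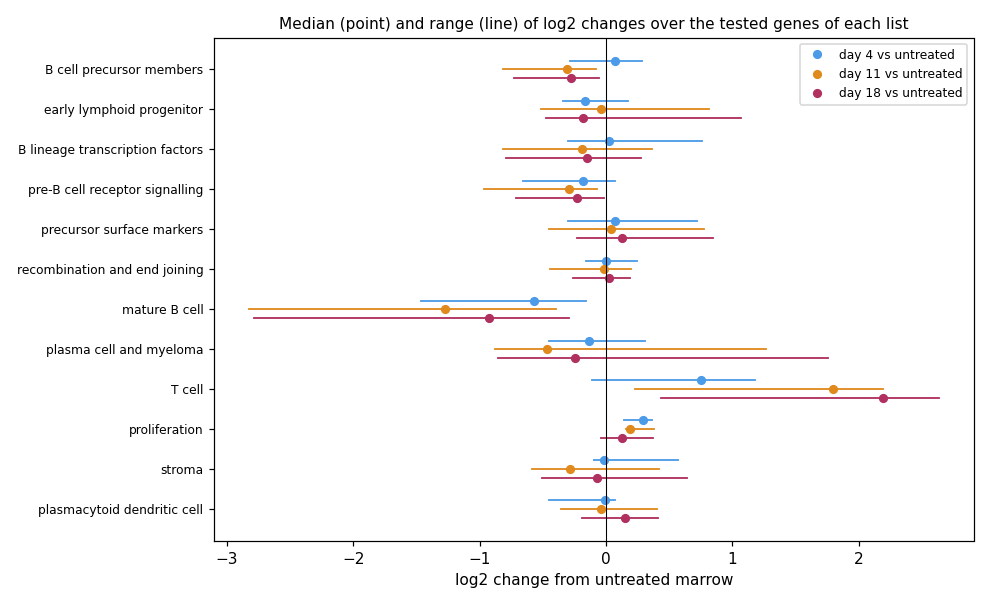
Median (points) and range (lines) of log2 changes from untreated marrow (horizontal axis) over the tested genes of each list (rows), by treatment day in colour. The 6 precursor genes have medians of 0.07, -0.31 and -0.28 at days 4, 11 and 18, and the mature B cell list has -0.57, -1.27 and -0.93.

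Genes of like profile were sought leaving out genes with predicted or clone-based names, named pseudogenes and segments of antigen receptors. Among the remaining tested genes outside these lists, the 8 with the profile most like the mean of the 6 over the 12 samples were Emid1, Ehd2, Bcl7a, Sdc4, Rapgefl1, Arl5c, Cecr2 and Otub2. Likeness was the root mean square difference of centred log2 values, which was 0.09 for Emid1, 0.11 for Ehd2 and 0.14 for Otub2. Among the 6 themselves it was lowest for Ebf1, at 0.09, and highest for Rag1, at 0.22. Each of the 6 is part of that mean, so their values cannot be set against those of the 8. None of the 8 was called at any day against untreated marrow (limma). The 8 were chosen in these same samples for likeness to that mean profile, so this is no separate result. Emid1 went from 271 ± 41.1 to 295 ± 78.2, 202 ± 37.3 and 224 ± 32.4 normalised counts over the 4 time points.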

How the data were processed

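The mRNA was sequenced in read pairs from strand-marking libraries, per the labels. GRCm38, limma, featureCounts 1.4.6 (Subread) and STAR 2.3.0 are listed in the submitters' processing notes, without roles. The deposited values are normalised counts, a score in whole numbers, per the file headers; how they were scaled is not given in the sources used here. Size factors were estimated from whole numbers missing or doubled among low values, assuming rounded quotients.

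A value of 1 was added before taking log2, and 14883 of 23134 genes, those reaching 10 in 3 or more samples, were tested. One limma 3.58.1 model with an intensity trend (R 4.3.3) covered all 12 samples, with two-sided tests, Benjamini-Hochberg adjustment over all genes and a threshold of 0.05. On simulated data for day 11 against untreated marrow (14634 genes), it recovered 91 of 99 genes changed by 1.5 on the log2 scale and 64 of 99 changed by 0.8, with 5 false calls. The simulation drew each gene independently with the same dispersion. In the measured samples the spread of the 6 precursor genes was uneven, with an SD of 6.22 to 34.8% of the mean at day 11. Whether the simulated counts carry over to the measured samples was not tested. Ratios of gene pairs were tested by exact permutation. All 23134 identifiers were found in GENCODE M21, which gave positions and exon lengths. Alternatives were the pseudocount, the filter, TMM or quantile scaling, no trend, sample weights, a depth covariate, fewer groups and each sample left out.

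The members and lists were chosen with earlier results of these data known. Named genes were the members, the first 4 tested genes of each list and the 8 most alike, with exceptions marked. Of 5 gene pairs planned, 3 hold a gene not analysed here. All 15 pairs of the 6 genes and the ratios to Ms4a1 were added after seeing the data. One gene of the lists is not reported here.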

Additional observations from a re-analysis of the deposited data

How the results depend on the processing

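No paired analysis was possible because the labels give no replicate numbers that groups share. The counts of precursor genes called were 0 at days 11 and 18 with no intensity trend and with the depth covariate, and 0 by the F-test with no intensity trend. The F-test called 2 after quantile normalisation and 2 with sample weights, and sample weights called 1 for day 11 against day 4; the cause was not tested. Leaving out 1 sample gave 0 to 2 at day 11, 0 to 2 at day 18, 0 to 1 for day 18 against day 4 and 0 to 3 by the F-test. The number of ratios to Ms4a1 that passed was 3 to 6, and of pairs of members 0 to 3. Over all alternatives, adjusted p at day 11 was 0.00362 to 0.0952 for Cd79a and 0.000107 to 0.149 for Pax5 (limma), and their log2 changes stayed negative.

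Values that did not pass and turned sign were, with the depth covariate, Pax5 at day 4 (0.17), Rag1 at day 11 (0.0011) and day 18 (0.13) and Rag2 at day 11 (0.058), and with sample weights Rag2 at day 11 (0.026) and Rag1 at day 18 (0.088). Leaving out 1 sample gave log2 changes of -0.12 to 0.39 for Ebf1 at day 4, -0.17 to 0.27 for Rag2 at day 4, -0.087 to 0.28 for Vpreb3 at day 4, -0.26 to 0.25 for Rag2 at day 11, -0.43 to 0.053 for Vpreb3 at day 11, -0.33 to 0.21 for Rag1 at day 18 and -0.30 to 0.055 for Rag2 at day 18. The count over all genes ranged from 69 to 1817 around 691 at day 4, 407 to 1914 around 792 at day 11, 800 to 2056 around 1369 at day 18, 136 to 763 around 250 for day 11 against day 4, 342 to 1844 around 815 for day 18 against day 4, 0 to 151 around 1 for day 18 against day 11, and 871 to 3154 around 1410 by the F-test. At day 4 the mature B cell genes called were 0 with the depth covariate, against 6, and at least 9 at day 11 under all alternatives, against 11.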
